A study of Mus musculus with 8 samples.

Results

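The genes of cholesterol and fatty acid synthesis were followed in T cells cultured with dendritic cells of a graft donor and sorted on CD69. The set was defined by 32 gene symbols, chosen for their role in these pathways and with earlier results of these data known. Sc4mol is the older symbol of Msmo1, so the symbols stand for 31 genes. They comprise 17 enzymes of sterol synthesis, 8 of fatty acid synthesis, 4 genes of control and sterol transport, and the 2 cholesterol exporters Abca1 and Abcg1. Of these, 29 had a probe among the 16593 named genes of the array, and Mvk and Fdft1 were not analysed here. A further 6 (Tm7sf2, Sc5d, Fasn, Scd1, Fads2 and Abca1) were detected on fewer than 2 of the 8 arrays, with a detection p under 0.01 as the limit. The remaining 23 were tested among 7403 genes.

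All T cells came from male C57BL/6 mice, and the grafts were tail skin of BDF1 donors, the cross of C57BL/6 with DBA/2. Naive mice had no graft, and rejecting mice were grafted, left untreated and sampled on day 7. Early tolerant and tolerant mice received a transfusion of donor cells together with MR-1, an antibody to CD40L, and were sampled on day 21 and day 100. T cells of spleen and lymph nodes spent 20 to 21 hours in culture with bone marrow dendritic cells of the donor strain and were split by sorting into CD69+ and CD69- fractions, CD69 being a surface protein that appears soon after antigen contact. Every culture contained donor dendritic cells. The sorting note in the labels writes both fractions alike, as CD3+ and CD69+, so the fraction was taken from each title. Each of the 8 combinations of 4 states and 2 fractions was 1 array, and the sources used here do not give the number of mice behind an array. P-values therefore measure how steady a difference between fractions was over the 4 recipient states, and differences between states have no replicate.

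Between 9593 and 10308 probes were detected per array, median raw intensities ran from 107 to 119 and mean raw intensities from 721 to 1038. All 3 measures were higher on the CD69+ array than on the CD69- array in each of the 4 pairs, before normalization, and their part in the differences between fractions was not tested. Cd69 itself had normalized signals of 4436 to 7543 on the CD69+ arrays and 1903 to 3004 on the CD69- arrays. The sort is therefore visible in the RNA. Of 9 T cell markers tested, Cd3d, Cd3e and Cd3g among them, 1 was higher and 6 were lower in CD69+ cells, with summed signals of 85061 to 98915 against 122161 to 130444. All 15 dendritic and myeloid markers tested were higher in CD69+ cells, with summed signals of 9744 to 56856 against 5268 to 11086. Itgax and Csf1r were not tested. Of the 15, Ccl22 and Tyrobp were detected on CD69+ arrays alone, so their direction was largely fixed by the filter, which leaves 13 of 13. In the rejecting pair Ccl17 was at -0.07 and Ccl22 at -0.10. Over all tested genes, 35.2% were called higher in CD69+ cells and 38.0% lower. Of the markers of other lymphocytes, the B cell gene Cd79b fell by 0.90 and the NK cell gene Klrd1 by 2.87 on the log2 scale. The other NK cell gene tested, Nkg7, did not pass (-0.23, adjusted p = 0.38), and its rejecting pair was at 0.53. In bulk samples such as these, fewer cells of a type and less RNA per cell cannot be told apart.

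Cells build cholesterol from acetyl-CoA through mevalonate, farnesyl diphosphate, squalene and lanosterol, and they build fatty acids from the same precursor after its carboxylation to malonyl-CoA. SREBP2 and SREBP1, the products of Srebf2 and Srebf1, are membrane-held transcription factors that are released when sterol in the endoplasmic reticulum is low and that switch on most of these enzymes, while INSIG1 holds them back. Liver X receptors work in the other direction: when sterols are plentiful they raise the exporters ABCA1 and ABCG1. T cells that begin to divide need new membrane, and in mouse T cells SREBP activity is known to rise, and liver X receptor activity to fall, after antigen receptor stimulation.

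The promoters of these genes were read from the RefSeq promoter table (GRCm38.p6), which spans the 250 bases before and the 50 after each start site. Outside 1 chromosome, which was not read for the set, it held 28 promoters for 23 of the 31 genes. The shares over all promoters rest on 32851 promoters, with no chromosome left out. The NF-Y box CCAAT, a sequence known to stand near SREBP sites, was found on either strand in 20 of the 28, against 37.4% of all promoters in the table. The Sp1 box GGGCGG was found in 21 of 28, against 35.7%. The sterol regulatory element core TCACNCCAC was found in 1 of 28, that of Hmgcs1, against 1.24%, and its shorter part CACCCCAC, which overlaps it there, in the same promoter, against 2.87%. The E-box TCACGTGA was found in none, against 0.974%. These matches describe letters within this window and were not tested as binding sites. Shown here are the Hmgcs1 promoter, which carries the sterol element core, those of Cyp51 and Hsd17b7, which rose most among genes with an entry, that of Insig1, which did not pass the test, and that of Elovl6, which fell. Capitals mark CCAAT (or ATTGG, the same box on the other strand) and the sterol element.
The Hmgcs1 promoter lies at chr13:119690101-119690400 (plus strand), that of Cyp51 at chr5:4104648-4104947 (minus strand), that of Hsd17b7 at chr1:169969156-169969455 (minus strand), that of Insig1 at chr5:28071162-28071461 (plus strand) and that of Elovl6 at chr3:129532136-129532435 (plus strand).
Hmgcs1: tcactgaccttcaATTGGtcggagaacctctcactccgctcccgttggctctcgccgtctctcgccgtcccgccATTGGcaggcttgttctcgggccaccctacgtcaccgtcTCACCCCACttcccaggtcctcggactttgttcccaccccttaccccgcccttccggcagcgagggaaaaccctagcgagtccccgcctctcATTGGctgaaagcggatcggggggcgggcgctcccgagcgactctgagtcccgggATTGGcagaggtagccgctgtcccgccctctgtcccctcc
Cyp51: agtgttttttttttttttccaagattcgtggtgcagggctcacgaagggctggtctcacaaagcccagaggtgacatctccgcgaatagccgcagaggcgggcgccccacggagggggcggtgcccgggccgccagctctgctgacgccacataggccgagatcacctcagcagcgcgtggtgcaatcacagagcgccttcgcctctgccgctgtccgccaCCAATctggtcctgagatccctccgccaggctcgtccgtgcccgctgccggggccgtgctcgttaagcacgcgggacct
Hsd17b7: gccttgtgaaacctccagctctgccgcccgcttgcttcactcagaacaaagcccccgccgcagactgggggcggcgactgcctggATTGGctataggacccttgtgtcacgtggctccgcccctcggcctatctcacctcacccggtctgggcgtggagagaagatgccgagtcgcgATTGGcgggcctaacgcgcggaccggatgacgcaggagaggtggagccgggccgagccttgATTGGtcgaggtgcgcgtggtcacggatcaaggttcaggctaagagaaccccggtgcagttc
Insig1: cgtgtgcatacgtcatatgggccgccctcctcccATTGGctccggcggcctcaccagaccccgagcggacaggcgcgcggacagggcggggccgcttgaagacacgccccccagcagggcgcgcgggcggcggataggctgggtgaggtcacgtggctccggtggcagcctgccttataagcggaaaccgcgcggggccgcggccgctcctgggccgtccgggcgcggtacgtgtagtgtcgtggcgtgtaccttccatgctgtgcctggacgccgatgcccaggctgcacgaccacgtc
Elovl6: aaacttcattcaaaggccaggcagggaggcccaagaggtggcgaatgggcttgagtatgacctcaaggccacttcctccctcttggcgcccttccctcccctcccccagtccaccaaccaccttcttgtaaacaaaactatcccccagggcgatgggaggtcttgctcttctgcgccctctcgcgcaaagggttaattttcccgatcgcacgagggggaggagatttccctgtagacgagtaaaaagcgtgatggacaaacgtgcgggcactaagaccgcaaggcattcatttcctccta

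The first comparison asked how CD69+ cells differed from CD69- cells within a recipient state. Sterol synthesis enzymes were higher in CD69+ cells as a group: 12 of the 13 tested rose, none fell and Ebp did not pass. Their median log2 difference was 1.29, against -0.04 for all 7403 genes. The set was chosen with earlier results of these data known, so its counts may not be independent of them. In that comparison 73.3% of all genes passed the test, so a call alone sets few genes apart: 35.2% of all genes were called higher and 38.0% lower (limma, adjusted p under 0.05 by Benjamini-Hochberg). At least 2-fold rises numbered 8 of the 13, against 17.3% of all genes, and for 10 of the 13 the lowest CD69+ array stood above the highest CD69- array, against 31.7%. Idi1 entered the test through CD69+ arrays alone, so its direction was largely fixed by the filter. Without it 11 of 12 rose, 7 of 12 at least 2-fold, and 9 of 12 had fractions that did not overlap. The fatty acid enzymes were split, with 4 higher and 1 lower of 5 tested. None of the 4 genes of control and transport passed, and the exporter Abcg1 fell. Genes of dividing cells rose beside the sterol enzymes, 8 of 8 tested, and their summed signals were 31979 to 40379 on CD69+ arrays against 2826 to 3968 on CD69- arrays. What part the dividing cells and the dendritic and myeloid RNA had in these differences was not tested.

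**Figure D1:**
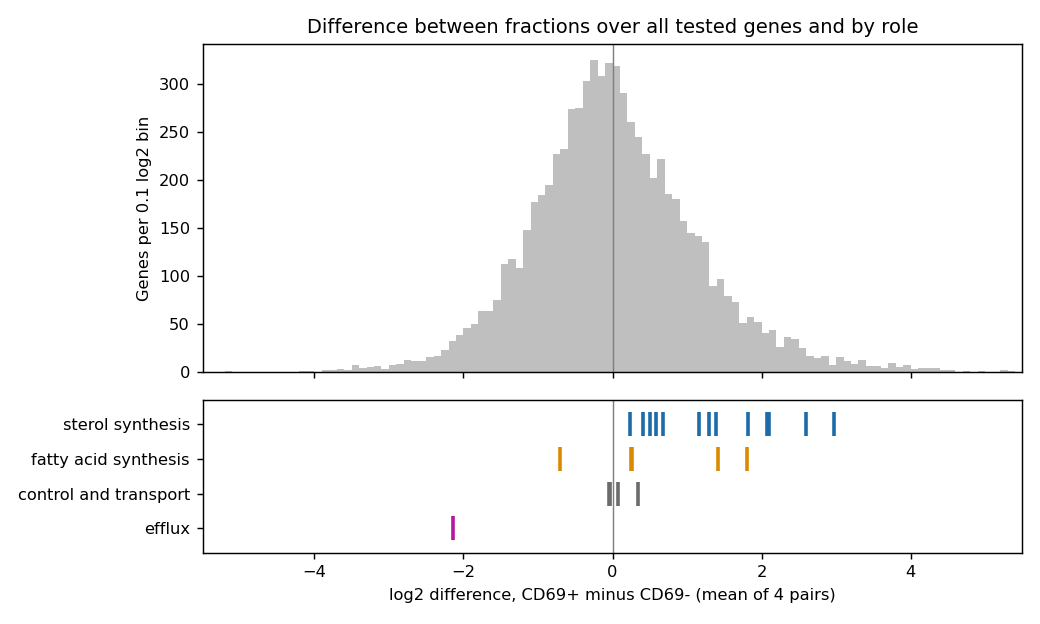
The upper panel is a histogram of the log2 difference between fractions (CD69+ minus CD69-, mean of 4 pairs) for 7403 genes, and the lower panel marks each tested gene of the set by role. The 13 sterol synthesis genes lie between 0.24 and 2.97, the 4 genes of control and transport between -0.05 and 0.34, and Abcg1 at -2.14.

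Of the enzymes from squalene to lanosterol, Sqle and Lss were measured. Sqle, squalene epoxidase, which catalyses the first oxygenation of the pathway, had normalized signals of 3312 in naive, 2776 in early tolerant, 2951 in tolerant and 1634 in rejecting CD69+ cells, and of 322, 323, 387 and 295 in their CD69- partners. Every CD69+ array was above every CD69- array, and the rejecting array was the lowest of both fractions. The rise was 7.82-fold (log2 2.97, SE 0.15, 4 pairs, adjusted p = 1.3e-05). A second Sqle probe, detected on 5 arrays, gave 2.65. Lss, lanosterol synthase, which closes the sterol rings, had signals of 416, 309, 356 and 305 in CD69+ and 112, 73.2, 100 and 110 in CD69- cells, in the same order of states. The groups did not overlap, and the early tolerant CD69- array was below detection. Lss rose 3.53-fold (log2 1.82, SE 0.12, adjusted p = 2.72e-05).

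Of the enzymes that turn lanosterol into cholesterol, Cyp51 and Hsd17b7 rose most. Cyp51, the lanosterol demethylase, had signals of 1403 in naive, 1584 in early tolerant, 1253 in tolerant and 1187 in rejecting CD69+ cells, and of 213, 248, 224 and 212 in CD69- cells. The pairs were close to one another, with differences of 2.48 to 2.72, and the rise was 6.02-fold (log2 2.59, SE 0.10, adjusted p = 8.97e-06). Hsd17b7, a ketoreductase of sterol demethylation, had signals of 1323, 1518, 1185 and 856 in CD69+ and 275, 310, 316 and 226 in CD69- cells. Its fractions were apart in every state, and the rejecting array was again the lowest of each fraction, with a rise of 4.28-fold (log2 2.10, SE 0.11, adjusted p = 1.42e-05). Msmo1, the methylsterol monooxygenase, had signals of 1212, 1440, 1266 and 1182 in CD69+ and 444, 512, 523 and 617 in CD69- cells. It rose 2.44-fold (log2 1.29, SE 0.12, adjusted p = 0.000105), and in the rejecting pair, the nearest together, the CD69- array was the highest of the 4.

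The remaining tested enzymes of this branch differed less. Dhcr7, which makes cholesterol from its direct precursor, rose by 0.59 with no overlap of the fractions (SE 0.12, adjusted p = 0.00349). Nsdhl, which removes a methyl group together with Msmo1 and Hsd17b7, rose by 0.50 (SE 0.17, adjusted p = 0.0335), with pair differences from 0.07 in rejecting to 1.12 in early tolerant cells, and its other 3 probes gave 0.35 to 0.48. The Nsdhl call was lost without the naive (adjusted p = 0.0864), tolerant (0.0592) or early tolerant pair (0.0931), and with no filter on dim genes (0.0725). Ebp, the sterol isomerase, had signals of 2192, 2054, 2473 and 2198 in CD69+ and 1771, 1770, 1760 and 2250 in CD69- cells, in the order naive, early tolerant, tolerant, rejecting. Its fractions overlapped through the rejecting CD69- array, and its difference was 0.24 (SE 0.11, adjusted p = 0.0904). Without the rejecting pair it was 0.34 and passed (adjusted p = 0.0369), as it did with median scaling. Tm7sf2 and Sc5d, a reductase and a desaturase of the same branch, were detected on none of the arrays.

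The mevalonate enzymes at the start of the pathway rose by different amounts. Fdps, farnesyl diphosphate synthase, had signals of 5459 in naive, 6065 in early tolerant, 6247 in tolerant and 4074 in rejecting CD69+ cells, and of 1156, 1370, 1345 and 1288 in CD69- cells. The fractions stood well apart, with a rise of 4.19-fold (log2 2.07, SE 0.13, adjusted p = 2.14e-05). Mvd, which decarboxylates mevalonate diphosphate, had signals of 391, 464, 474 and 307 in CD69+ and 162, 134, 137 and 189 in CD69- cells. The rejecting pair was nearest together, at 0.70, and the others were at 1.27 to 1.80, for a rise of 2.62-fold (log2 1.39, SE 0.20, adjusted p = 0.000677). Idi1, the isomerase that makes the second building block of isoprenoids, had signals of 91.8, 87.8, 98.9 and 69.3 in CD69+ and 47.0, 34.8, 35.1 and 38.2 in CD69- cells. It was detected in 3 CD69+ arrays, all but the rejecting one, and in none of the CD69- arrays, so its rise is given as at least 1.10-fold. The test used the signals as measured (log2 1.16, SE 0.13, adjusted p = 0.000254), and the bound itself was not tested.

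Smaller rises were found for the remaining mevalonate enzymes. Pmvk, phosphomevalonate kinase, rose by 0.68 (SE 0.12, adjusted p = 0.00163) without overlap of the fractions. Hmgcs1, HMG-CoA synthase, rose by 0.41 (SE 0.10, adjusted p = 0.0083), from CD69- signals of 6264 to 7771 to CD69+ signals of 7224 to 10950. The fractions of Hmgcs1 overlapped across states, but the CD69+ array was the higher one in all 4 pairs.

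**Figure D2:**
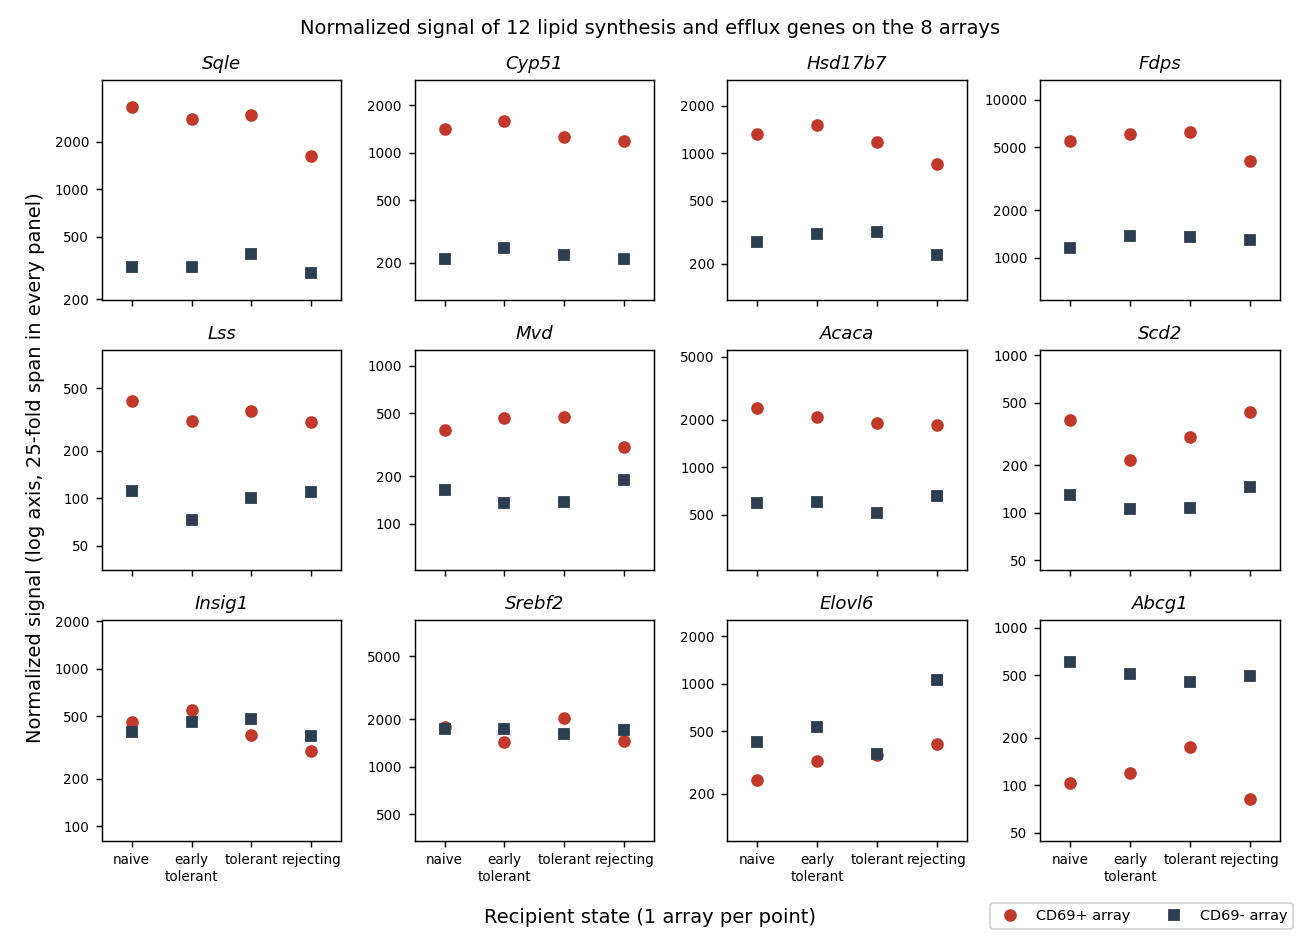
Normalized signal on a log axis for 12 genes, with 1 panel per gene, the 4 recipient states along the horizontal axis and 1 array per point (circles CD69+, squares CD69-). Every panel spans the same fold range, so the gap between circles and squares can be compared: it is widest for Sqle, near 0 for Insig1 and Srebf2, and turned over for Abcg1.

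The control genes of the set did not pass the test. Srebf2, which encodes the main activator of sterol synthesis, had signals of 1790 in naive, 1424 in early tolerant, 2023 in tolerant and 1454 in rejecting CD69+ cells, and of 1734, 1745, 1602 and 1707 in CD69- cells. The fractions overlapped, and the difference was -0.04 (SE 0.13, adjusted p = 0.817). Srebf1 was close to detection, with signals of 69.5, 71.6, 93.2 and 50.9 in CD69+ and 87.3, 55.6, 66.8 and 60.6 in CD69- cells, and it was detected on 3 arrays. Its difference was 0.07 (SE 0.16, adjusted p = 0.73). These values concern the transcripts and say nothing of the cleaved, active proteins.

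Insig1 and Stard4 are themselves known targets of SREBP. Insig1 had signals of 458, 549, 379 and 299 in CD69+ and 394, 456, 482 and 374 in CD69- cells, again in the order naive, early tolerant, tolerant, rejecting. It was higher in CD69+ cells of the naive and early tolerant pairs and lower in the other pairs, with a mean difference of -0.05 (SE 0.14, adjusted p = 0.784). A pair of dimmer Insig1 probes, both detected on all 8 arrays, gave 0.21 and 0.37, so the probes disagree in direction. Those probes were at 1.01 and 1.08 in the early tolerant pair and at 0.35 and 0.56 in the naive pair. They were at -0.26 and -0.01 in the tolerant pair and at -0.28 and -0.16 in the rejecting pair. Stard4, a carrier of cholesterol between membranes, had signals of 762, 1501, 787 and 845 in CD69+ and 753, 914, 820 and 522 in CD69- cells. Its pair differences were 0.69 in rejecting and 0.72 in early tolerant cells and 0.02 and -0.06 in naive and tolerant cells, for a mean of 0.34 (SE 0.17, adjusted p = 0.103). With median scaling Stard4 passed at 0.46 (adjusted p = 0.0281), and the differences of Insig1 and Srebf2 turned to 0.10.

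Among fatty acid enzymes the first committed step and a desaturase rose. Acaca, acetyl-CoA carboxylase, which makes malonyl-CoA, had signals of 2380 in naive, 2082 in early tolerant, 1918 in tolerant and 1841 in rejecting CD69+ cells, and of 595, 602, 516 and 653 in CD69- cells. No arrays overlapped, and the rise was 3.47-fold (log2 1.80, SE 0.11, adjusted p = 2.29e-05). Scd2, a stearoyl-CoA desaturase, which puts the first double bond into saturated chains, had signals of 387, 215, 301 and 438 in CD69+ and 129, 106, 107 and 146 in CD69- cells. Here the rejecting CD69+ array was the highest and the early tolerant one the lowest, and the rise was 2.68-fold (log2 1.42, SE 0.13, adjusted p = 8.21e-05). The related Scd1 was detected on the naive CD69+ array alone.

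Acly, which makes cytosolic acetyl-CoA from citrate, and Fads1, a desaturase of polyunsaturated chains, rose by 0.25 (SE 0.09, adjusted p = 0.047) and 0.26 (SE 0.09, adjusted p = 0.0332). Both were higher in CD69+ cells in 4 of 4 pairs. The Acly call was lost without any 1 of the 4 pairs (adjusted p from 0.0633 to 0.141), and that of Fads1 without the naive (0.0999), rejecting (0.0709) or early tolerant pair (0.116). Fasn, the fatty acid synthase itself, was detected only on the rejecting CD69- array, at 80.2, and stood at 45.7 to 59.3 on the other arrays, so no difference is given. Fads2 was detected on none.

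Elovl6, which lengthens saturated chains, was the 1 tested synthesis gene of the set that fell. Its signals were 243 in naive, 325 in early tolerant, 353 in tolerant and 414 in rejecting CD69+ cells, and 423, 529, 357 and 1047 in CD69- cells. The rejecting CD69- array stood alone at the top, and the tolerant pair did not differ. The mean difference was -0.71 (SE 0.20, adjusted p = 0.0167). The call was lost without the naive pair (adjusted p = 0.0612), without the early tolerant pair (0.0522), with median scaling (0.0524) and without pairing the arrays (0.066).

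The exporter Abcg1 moved against the synthesis enzymes. ABCG1 passes cholesterol to lipoproteins outside the cell. Its signals were 104 in naive, 119 in early tolerant, 176 in tolerant and 82.1 in rejecting CD69+ cells, and 605, 505, 452 and 496 in CD69- cells. All CD69+ arrays were below all CD69- arrays, as for 34.4% of all genes, and Abcg1 was 4.42-fold lower (log2 -2.14, SE 0.21, adjusted p = 0.00013). The tolerant pair was the nearest together, at -1.36, and the others were at -2.08 to -2.60. That tolerant CD69+ array also had the highest summed signal of dendritic and myeloid markers, and their part in it was not tested. Abca1, the other exporter, stood between 25.3 and 29.9 on all 8 arrays and was not detected on any, so efflux rests on Abcg1 alone. Set side by side, the sterol enzymes had a median pair difference of 1.27 in naive, 1.49 in early tolerant, 1.50 in tolerant and 0.86 in rejecting cells. Those of Abcg1 were -2.55, -2.08, -1.36 and -2.60.

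**Figure D3:**
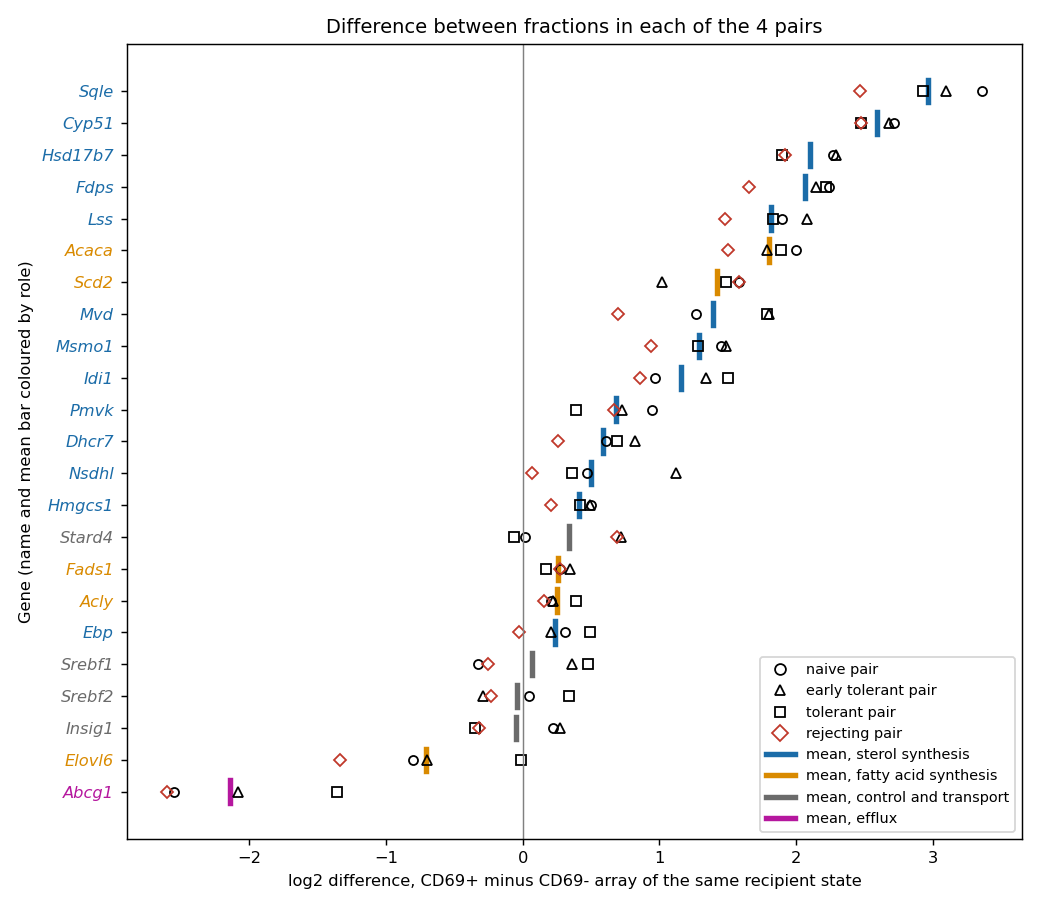
The log2 difference between the CD69+ and the CD69- array of each recipient state (open symbols, red diamonds for rejecting) and the mean over the 4 pairs (bars, coloured by role) for the 23 tested genes. The means of the sterol enzymes lie to the right of 0, and the rejecting pair of Ebp lies at -0.03. The pairs of Abcg1 lie at -2.60 to -1.36, and the rejecting pair gives the smallest difference for 10 of the 13 sterol enzymes.

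Related genes that were not in the set were compared through lists, whose genes were chosen with earlier results of these data known. Of 9 tested genes of other sterol steps, sterol release and SREBP control, 2 rose and 6 fell (median -0.67), where 35.2% of all genes rose and 38.0% fell. Aacs, which returns acetoacetate to sterol synthesis, rose by 1.22. Npc2 and Lipa, which free cholesterol from lysosomes after lipoprotein uptake, fell by 1.38 and 1.15. Lbr, a lamin receptor with sterol reductase activity, fell by 1.10, and Insig2, a second SREBP retention protein, by 0.81. Mbtps1, the first protease that cleaves SREBP, fell by 0.67, with pair differences of -0.04 in tolerant and -0.95 to -0.79 in the others. Pcyt2, also on the list, rose by 0.44, and Stard3 fell by 0.57. Scap, the SREBP escort, had a difference of 0.10 (adjusted p = 0.555). The uptake receptor genes Vldlr and Scarb1 were not tested.

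Of 9 tested genes of the liver X receptor list, 1 rose and 4 fell (median 0.02, or 0.00 with genes undetected in 1 fraction at their bound). Without Mylip and Apoe, each detected in 1 fraction alone, 1 of 7 rose and 3 fell, and the shares of falls with and without them are near the 38.0% of all genes. Smpdl3a, a phosphodiesterase gene, fell by 2.52, the transporter gene Abca7 by 1.45 and Rxrb, a partner receptor, by 1.19. Whether Smpdl3a and Abca7 answer to these receptors in mouse T cells was not tested. Mylip, whose product degrades lipoprotein receptors, was detected on 2 CD69- arrays and no CD69+ array, so its direction was largely fixed by the filter. Lpcat3, a phospholipid remodelling enzyme and receptor target, had a difference of 0.02 (adjusted p = 0.846), and the receptors Nr1h2 and Nr1h3 were not tested. Scd2 and Srebf1 are on this list too, so it is not independent of the set.

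Of 15 further genes of fatty acid synthesis and supply, 8 rose and 4 fell (median 0.41), where 35.2% of all genes rose and 38.0% fell. Without Fabp5 and Agpat5, both detected on CD69+ arrays alone, 7 of 13 rose and 4 fell. Slc25a1, which carries citrate out of mitochondria, rose by 1.81. Mecr and Hsd17b12, reductases of mitochondrial synthesis and of chain lengthening, rose by 1.28 and 1.23. Fabp5, a fatty acid carrier detected on every CD69+ and no CD69- array, was at least 1.65-fold higher. Its test used the signals as measured (log2 2.30, adjusted p = 4.09e-05), and the bound itself was not tested. Acss2, which makes acetyl-CoA from acetate, fell by 2.48. Lpin1, a phosphatidate phosphatase, fell by 1.60, with pair differences of -0.14 in rejecting and -2.47 to -1.74 in the others, and Elovl5, an elongase of polyunsaturated chains, fell by 1.08. Of 14 genes of fatty acid oxidation, 5 rose and 4 fell (median 0.17), which is near the shares over all genes. Etfb, an electron carrier of that pathway, rose by 1.40. No enzyme of the oxidation list fell by as much as 2-fold.

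The second question was whether the set differed between recipient states, which here rests on 1 array a side. In CD69+ cells the sterol enzymes were lower on the rejecting than on the naive array. Of the 13, 11 lay below, against 50.8% of all genes, with a median of -0.35 against -0.01. The counts for rejecting CD69+ cells that follow reuse this 1 array, and genes of 1 pathway are not replicates. At least 1.5-fold lower were 2, Sqle at -1.02 and Hsd17b7 at -0.63, against 5.81% of all genes. The rejecting CD69+ array was the lowest of the 4 for 10 of the 13, against 28.1% of all genes, and the highest for none, against 28.7%. In the CD69- fraction the rejecting array was the lowest for 4 and the highest for 6 of the 13, against 28.0% and 32.0% of all genes, and the median difference from naive was 0.07. The difference between CD69+ and CD69- cells was smallest in the rejecting pair for 10 of the 13, against 29.6% of all genes and 43.2% of the 2607 genes called higher. Summed signals of dividing cell genes (31979 against 36806 to 40379) and of dendritic and myeloid markers (9744 against 17715 to 56856) were also lowest on the rejecting CD69+ array, and their part in the result was not tested.

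By their medians, the sterol enzymes of the tolerant states stood nearer to naive than those of rejecting mice. The exporter Abcg1 did not share this order in CD69+ cells. Its differences from the naive array were 0.77 (tolerant, past 1.5-fold), -0.34 (rejecting) and 0.20 (early tolerant). In tolerant CD69+ cells the 13 sterol enzymes had a median difference of 0.03 from naive, from -0.53 for Pmvk to 0.28 for Mvd, and none reached 1.5-fold in either direction, against 6.70% of all genes higher and 4.48% lower. In early tolerant CD69+ cells the median was 0.17, and Nsdhl at 0.66 was the 1 sterol enzyme past 1.5-fold, against 4.69% of all genes higher. Stard4 was the gene of control and transport furthest from naive there, at 0.98, and Scd2 the fatty acid gene furthest below, at -0.85, where 3.31% of all genes were at least 1.5-fold lower. Median scaling moved the median of all genes from -0.01 to -0.28 in that comparison and from 0.00 to -0.11 in the tolerant one. The sterol medians turned to -0.16 and -0.15, which is 0.13 above and 0.04 below the median of all genes. Both comparisons, and the one of rejecting mice, share the naive array.

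Rejecting and tolerant cells were compared directly as well, with the same rejecting arrays. The sterol enzymes of rejecting CD69+ cells had a median of -0.31 against tolerant and -0.50 against early tolerant cells, with 3 and 5 of 13 at least 1.5-fold lower, against 8.16% and 6.78% of all genes. Sqle, Mvd and Fdps had differences of -0.85, -0.63 and -0.62 from the tolerant array. Against early tolerant cells the 5 were Hsd17b7 at -0.83, Sqle at -0.76, Nsdhl at -0.64, and Mvd and Hmgcs1 at -0.60 each. Abcg1, too, was lower in rejecting than in tolerant CD69+ cells, at -1.10, so in this comparison exporter and enzymes lay on the same side. In CD69- cells the sterol median was 0.12 between rejecting and tolerant, and Elovl6 had the widest difference of the set, at 1.55.

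**Figure D4:**
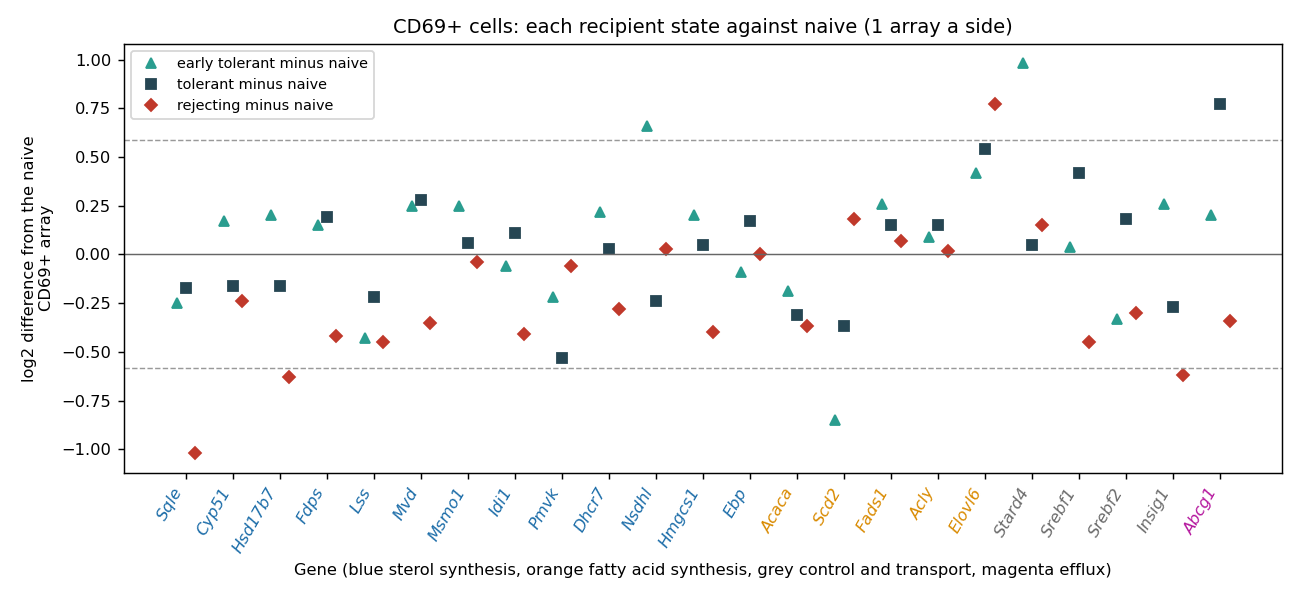
The log2 difference of each early tolerant, tolerant and rejecting CD69+ array from the naive CD69+ array for the 23 tested genes, grouped by role, with dashed lines at 1.5-fold. Red diamonds (rejecting) lie below 0 for 11 of the 13 sterol enzymes, down to -1.02 for Sqle, while the tolerant squares lie between -0.53 and 0.28.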

How the data were processed

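Expression was measured on Illumina MouseRef-8 bead chips, and the submitters' processing notes name BeadStudio 3.1.3. The deposited non-normalized table holds a mean bead intensity and a detection p-value per probe and array, per the file headers, with no background subtraction stated. The deposited series matrix holds intensities that share 1 set of sorted values over the 8 arrays, so the values show quantile normalization on a linear scale with no centring and a median of 113 in every column. No signed ratio is involved.

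The probe identifiers of that first table were out of register with the series matrix: all 25697 rows matched a series matrix row through their values, and 20106 (78.2%) carried another identifier there. The series matrix identifiers were used, under which probes of the same gene correlated better across arrays (median r 0.862 over 1230 pairs, against 0.367 over 1428 pairs). Of the probes, 23978 had 1 symbol, none had several and 1719 had none. Symbols were updated by Entrez identifier through the RefSeq gene table for 23962 probes.

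The raw intensities were passed through neqc of limma 3.58.1 (R 4.3.3), which corrects background from the detection p-values, quantile-normalizes and takes log2, with an offset of 16, which shrinks the fold changes of dim genes. Signals printed are these values on a linear scale. The brightest probe stood for a gene, and a detection p under 0.01 on at least 2 arrays was required, which left 7403 genes. Fractions were compared with limma's moderated linear model, 2-sided, with recipient state as a block (3 residual degrees of freedom), Benjamini-Hochberg over all 7403 genes and a threshold of 0.05. The pairing comes from the shared recipient state in the labels, and the deviations of paired arrays correlated by 0.209 to 0.345. States were compared without a test, with at least 1.5-fold as the limit. Where no array of a fraction detected a gene, the fold is a bound, set by the dimmest detected signal on each of its arrays or the gene's own signal if higher.

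Members, lists and tests were chosen with earlier results of these data known. By the naming rule, array values are printed for genes past the test with at least 2-fold difference, with pairs in opposite directions, or with a role in control or efflux. Elovl6 was added after its values were seen. Some genes of lipid uptake and synthesis are not reported here. The alternatives tried were median scaling, no background correction, the authors' normalized intensities as log2(value + 16), the mean over probes, no filter, detection on at least 4 arrays, no pairing, an intensity trend in the variance, and leaving out each pair.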

Additional observations from a re-analysis of the deposited data

Results flagged for a closer look

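Pair differences of the 23 tested genes (log2, CD69+ minus CD69-) were screened for 1 pair far from the other 3, which chance gives in about 1 of 20 groups, and 2 of 23 genes met this. Fdps had a difference of 1.66 in the rejecting pair, against 2.15 to 2.24 in the others. Scd2 had 1.02 in the early tolerant pair, against 1.49 to 1.58.

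Pairs in opposite directions were found for 5 of the 23 genes, with 1 pair per state, so these contrasts between states were not tested. Ebp had -0.03 in rejecting and 0.49 in tolerant cells. Insig1, by its brightest probe, had -0.35 in tolerant and 0.27 in early tolerant cells. Srebf1 had -0.33 in naive and 0.48 in tolerant cells, with detection on 3 arrays. Srebf2 had -0.29 in early tolerant and 0.34 in tolerant cells. Stard4 had -0.06 in tolerant and 0.72 in early tolerant cells.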

How the results depend on the processing

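The number of genes of the set called higher (16) was 15 to 18 under the alternatives that kept all 4 pairs and 13 to 15 without 1 pair. The number called lower (2) was 1 with median scaling and 1 without the block on recipient state (no replicate block), and 1 to 2 without 1 pair, Elovl6 being the gene lost. The median of the fatty acid genes (0.26) was 0.40 with median scaling, which moved the median of all genes from -0.04 to 0.10, and 0.33 with no filter. The split of all calls was 2607 higher and 2816 lower, and 2962 and 2374 with median scaling. Abcg1 (-2.14) was at -1.51 in the authors' normalized intensities, and the median of both exporters was -1.12 with no filter, where undetected Abca1 counts. The sterol median minus that of efflux (3.43) was 2.64 without background correction, 2.52 in the authors' intensities and 2.28 with no filter. Insig1 turned to 0.10 with median scaling and 0.12 with the mean over probes, and Srebf2 to 0.10 with median scaling. Without 1 pair, Insig1 ranged from -0.15 to 0.05, Srebf1 from -0.07 to 0.20 and Srebf2 from -0.16 to 0.05. Sterol medians against naive turned with median scaling to -0.15 (tolerant) and -0.16 (early tolerant) in CD69+ cells and to -0.06 and -0.12 in CD69- cells. The tolerant one in CD69+ cells was -0.07 with detection on at least 4 arrays. The rejecting CD69+ median stayed below naive under all 6 alternatives run, from -0.42 to -0.23. Apart from the lower count, no list value moved past its spread with no replicate block. Beyond the changes of construction named, the cause was not tested. Precision is limited by 1 array per group. Signals near background limit it further: Idi1 has only a bound, and Srebf1 was detected on 3 arrays.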
